A study of Mus musculus with 6 samples.

Results

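Carbonic anhydrases are the zinc enzymes that interconvert carbon dioxide and bicarbonate, and 10 of their mRNAs are described here in Ribo-seq libraries of mouse tissues. The members were taken by gene symbol (Car1, Car2, Car3, Car4, Car5b, Car8, Car11, Car12, Car14 and Car15), and all 10 were found among the 18437 mRNAs listed in any library. The remaining genes of the family (Car5a, Car6, Car7, Car9, Car10 and Car13) serve as comparison, which makes 16 carbonic anhydrase genes in all. Ribo-seq sequences the mRNA fragments that translating ribosomes protect from nuclease. Lysates were prepared from heart, lung, kidney, brain, colon and small intestine of untreated wild-type C57BL/6J mice aged 4 weeks, with 1 library per tissue, and the number of mice behind a library is not given in the sources used here. No genotype, treatment or age distinguishes the libraries, only the tissue label.

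The enzymes of this family speed up the hydration of carbon dioxide, which yields bicarbonate and a proton, and so serve gas transport, acid secretion, bicarbonate reabsorption and the supply of bicarbonate to carboxylating enzymes. Isoforms differ in where they work. Car1, Car2 and Car3 are cytosolic, Car4 and Car15 are held at the outer cell surface by a lipid anchor, Car12 and Car14 cross the membrane with their active site outside, and Car5b is mitochondrial. Car8 and Car11 are carbonic anhydrase-related proteins, which keep the fold but lack the enzyme activity. These places are textbook knowledge and were not measured.

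The active site holds a zinc ion on 3 histidines, and the codons of the 10 mRNAs show which members keep them. In an alignment of the translated coding sequences (CDSs), 8 members had a histidine codon at all 3 positions and 2 had fewer. The stretches of 30 bases below were read from the GRCm39 transcripts, with the codons at the first and the second of these positions in capitals. Car2 is shown as the reference enzyme, Car4 and Car14 as the leading membrane forms, Car5b as the mitochondrial form, and Car8 and Car11 as the members that differ.
Car2 (chr3:14960117-14960146, plus strand): ttgatccagtttCACtttCACtggggctca
Car4 (chr11:84854981-84855010, plus strand): gctgtacagttgCACctgCACtggtcaaat
Car14 (chr3:95807612-95807641, minus strand): gcagcccagctcCACctgCACtggggtcag
Car5b (chrX:162774401-162774430, minus strand): ctgaagcagtttCATtttCATtggggagcc
Car8 (chr4:8221604-8221633, minus strand): ctgtatgaagttAGAtttCACtggggaaga
Car11 (chr7:45351960-45351989, plus strand): ctcagtgaactgCGCctgCTAtttggagct
Each stretch lies in a single coding exon, and CAC and CAT are the codons of histidine. In Car2 the positions are codons 94, 96 and 119, counted from the start codon. Car8 has AGA, an arginine codon, at the first position and histidine codons at the remaining positions, so it keeps 2 of 3. Car11 has CGC, CTA and CAG, the codons of arginine, leucine and glutamine, and keeps none. Aligned protein identity between members ran from 24.3% (Car4 and Car11) to 58.7% (Car1 and Car2), and no 29-nt window of the CDSs was found in another of the 18306 mRNAs searched, except 2 of the 752 windows of Car2, which occur in Car13. This bears on the values because the authors left out reads that mapped to several places.

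Values are RPKM as deposited, which scales the reads on a CDS to its length and to the reads on all CDSs, and are a ribosome density that joins mRNA abundance and ribosome load. The reads behind them could be recovered whole, between 4504853 and 10635031 per library, and intervals are exact 95% Poisson or binomial intervals on those reads. Such intervals cover counting error only, and they can be too narrow even for that, since PCR copies are not independent molecules. With 1 library per label no test between tissues was made. In whole tissue, fewer cells of a type and less RNA per cell cannot be told apart. Labels were checked with 4 markers per tissue. All 4 heart markers and all 4 lung markers were highest under their own labels, whereas the brain markers summed to 3151 RPKM in the small-intestine-labelled library and 36.4 RPKM in the brain-labelled one, and the small intestine markers to 27860 RPKM in the brain-labelled one and 346 RPKM in the small-intestine-labelled one. Colon markers summed to 5129 RPKM in the kidney-labelled library and 2.76 RPKM in the colon-labelled one, and kidney markers to 21255 RPKM in the colon-labelled one and 18.4 RPKM in the kidney-labelled one. The libraries are therefore named by label throughout, and 4 of the 6 labels go against the markers.

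Within each library, 1 or 2 members accounted for most of the density of the family. Car14 led in the colon-, heart- and small-intestine-labelled libraries, Car1 in the kidney-labelled one and Car8 in the lung-labelled one, whereas Car4 and Car12 were level in the brain-labelled one. Membrane forms held the largest share of the summed RPKM in the brain-, colon-, heart- and small-intestine-labelled libraries, cytosolic forms in the kidney-labelled one, and the related protein Car8 in the lung-labelled one. The mitochondrial Car5b was never among the first 3.

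In the kidney-labelled library, Car1 had 434 RPKM and Car4 had 371 RPKM, ranks 213 and 244 of the 14109 mRNAs with reads. Car1 stood 1.17-fold above Car4 (95% interval 1.11 to 1.24), and together they held 81.0% of the 993 RPKM of the 10 members. Cytosolic forms held 52.7% and membrane forms 41.2%. In the colon-labelled library, Car14 had 323 RPKM, 3.86-fold above Car4 (3.43 to 4.35), and membrane forms held 84.7% of 601 RPKM. The heart-labelled library showed the same leader at a lower level, with Car14 at 185 RPKM, 4.72-fold above Car4 (4.16 to 5.36). Membrane forms held 77.8% of 290 RPKM there. Second place was close in both libraries. In the colon-labelled one Car4 had 83.7 RPKM and Car12 had 79.8 RPKM. In the heart-labelled one Car4 had 39.3 RPKM and Car1 had 37.5 RPKM. In the lung-labelled library, Car8 had 92.6 RPKM, 2.02-fold above Car3 (1.75 to 2.34), so a protein without enzyme activity held 40.8% of 227 RPKM. Among the members with a full set of zinc-binding histidines, Car3 led there with 45.8 RPKM. In the small-intestine-labelled library, Car14 had 77.4 RPKM and Car8 had 60.7 RPKM, a ratio of 1.27 (1.12 to 1.45), and the related proteins Car8 and Car11 held 37.8% of 193 RPKM beside 57.3% for membrane forms. In the brain-labelled library, Car4 had 18.7 RPKM and Car12 had 18.5 RPKM, a ratio of 1.01 whose interval (0.824 to 1.24) holds 1.

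**Figure D1:**
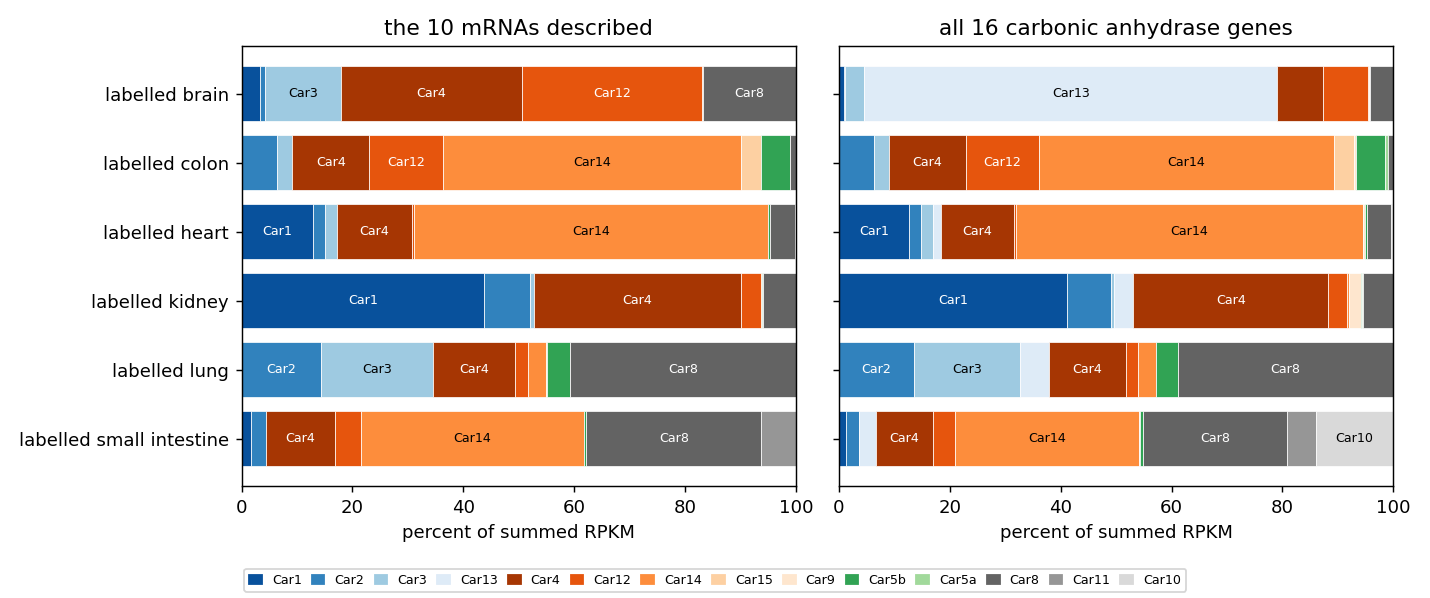
Percent of the summed RPKM taken by each carbonic anhydrase mRNA in each library (1 library per label), over the 10 mRNAs described (left) and over all 16 genes (right). Blue shades are cytosolic forms, orange shades membrane forms, green mitochondrial forms and grey shades carbonic anhydrase-related proteins. Car6 and Car7 are counted in the sum of the 16 genes but are not drawn. Car13 takes 74.6% in the brain-labelled library once all 16 genes are counted.

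Counting the whole family changed the leading gene of 1 library and brought the leading places of 2 others close together. Car13, a cytosolic form outside the 10 members, had 169 RPKM in the brain-labelled library, 9.04-fold above Car4 (7.74 to 10.6), and held 74.6% of the density of the 16 genes there. With it, cytosolic forms made up 79.1% and membrane forms 16.7% in that library, against 17.9% and 65.3% without. In the libraries with other labels the leading gene stayed the same, and Car10, a further related protein, came next after Car8 in the small-intestine-labelled one with 32.0 RPKM. Membrane forms then held 47.7% and related proteins 45.0% in that library, and in the lung-labelled one related proteins held 38.7% and cytosolic forms 37.9%, against 40.8% and 34.5% over the 10 members. Reads on the 10 members made up 0.0843% of all reads in the kidney-labelled library (95% Wilson interval 0.0822 to 0.0864) and 0.00532% in the brain-labelled one (0.00490 to 0.00578), a 15.8-fold range, which Car13 narrows, since the share of all 16 genes in the brain-labelled library was 0.0187%.

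Across libraries, 8 of the 10 members were at least 2-fold higher in 1 library than in any other, with at least 20 reads there. Of the 14329 mRNAs with at least 20 reads in their highest library, 44.6% met the same rule. In the kidney- and colon-labelled libraries, 3 members each were called and highest there, beside 2.46% and 5.36% of all mRNAs, and 1 each in the lung- and small-intestine-labelled ones, beside 11.4% and 14.2%. No member was highest in the brain- or heart-labelled library, where 16% and 12.7% of the tested mRNAs were highest, and so none was called there, beside 5.88% and 5.28% of all mRNAs. At 4-fold, 4 members were called, namely Car1, Car4, Car11 and Car15, beside 23.6% of all mRNAs. Leaving out the 4 libraries whose markers go against the label, 7 of the 8 members with at least 20 reads differed 2-fold or more between the heart- and lung-labelled libraries, beside 69.1% of all mRNAs, so 2-fold differences between these libraries were common. Car2, Car3, Car5b, Car8 and Car12 were higher in the lung-labelled library, by 5.09-fold (Car2) to 8.35-fold (Car5b), whereas Car14 and Car1 were higher in the heart-labelled one. Car1 had no reads in the lung-labelled library, and its heart-labelled value was 75.6-fold the level that 3 reads would give there. Colon markers summed to 74.3 RPKM in the heart-labelled library and 4.04 RPKM in the lung-labelled one. Their part in this difference of Car1 was not tested. Car4 did not separate these libraries.

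**Figure D2:**
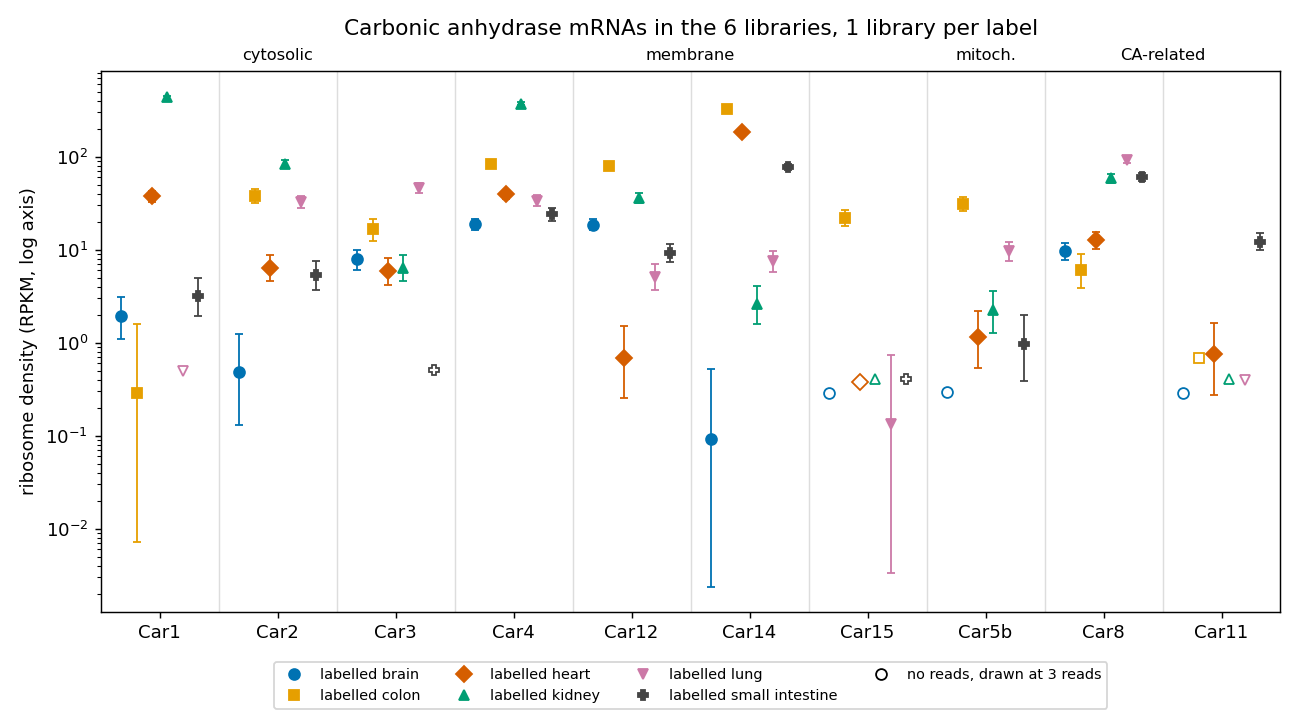
Ribosome density (RPKM, log axis) of the 10 mRNAs in the 6 libraries, 1 library per label, with exact 95% Poisson intervals as bars. Open symbols stand for mRNAs with no reads, drawn at the RPKM that 3 reads would give. Car1 and Car4 are highest in the kidney-labelled library at 434 and 371 RPKM, and Car14 in the colon-labelled one at 323 RPKM.

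Among the cytosolic forms, Car1, the abundant enzyme of red blood cells and of the large intestine, had the steepest profile. It had 434 RPKM in the kidney-labelled library, 37.5 in the heart-labelled one, 3.17 in the small-intestine-labelled one, 1.92 in the brain-labelled one and 0.284 RPKM, from 1 read, in the colon-labelled one. It had no reads in the lung-labelled library, where 3 reads would give 0.496 RPKM. The kidney-labelled library stood 11.6-fold above the heart-labelled one (10.1 to 13.3) and held 91.0% of the summed RPKM of Car1 over the 6 libraries, and the values of the small-intestine- and brain-labelled libraries could not be separated (ratio 1.65, 0.805 to 3.43).

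Red cell and colon markers moved differently from each other around Car1. The red blood cell list summed to 507 RPKM in the lung-labelled library, 134 in the colon-labelled one, 49.6 in the heart-labelled one, 7.76 in the kidney-labelled one, 5.03 in the brain-labelled one and 3.25 RPKM in the small-intestine-labelled one, and 6 of the 7 markers with at least 20 reads were highest in the lung-labelled one. Hbb-bs, a beta globin, had 309 RPKM in the lung-labelled library, where Car1 had no reads, and 4.78 RPKM in the kidney-labelled one. Globin genes have near-identical copies, so their values are uncertain where multi-mapped reads were left out. Colon markers, in contrast, were all highest in the kidney-labelled library, with 367 RPKM of Slc26a3, the chloride and bicarbonate exchanger of the colon surface, and 123 RPKM of the water channel Aqp8. The list of 4 colon markers summed to 2514 RPKM in the brain-labelled library as well, where Car1 had 1.92 RPKM, and to 74.3 RPKM in the heart-labelled one, where Car1 had 37.5 RPKM. It summed to 35.1 RPKM in the small-intestine-labelled library, 4.04 in the lung-labelled one and 2.76 RPKM in the colon-labelled one. The part of colon cells or of red blood cells in these levels of Car1 was not tested.

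Car2, the fast and widely used cytosolic enzyme, had 83.2 RPKM in the kidney-labelled library, 38.1 in the colon-labelled one, 32.7 in the lung-labelled one, 6.42 in the heart-labelled one, 5.37 in the small-intestine-labelled one and 0.482 RPKM, from 4 reads, in the brain-labelled one. The ratio of the kidney- and colon-labelled libraries was 2.18 (1.80 to 2.66), so its interval runs across the 2-fold line. The colon- and lung-labelled ones could not be separated (1.17, 0.930 to 1.46). Car2 is also known from oligodendrocytes, whose 4 markers were all highest in the small-intestine-labelled library, at a sum of 5206 RPKM against at most 37.0 RPKM elsewhere. Car2 itself was at 5.37 RPKM in that library, and the part of oligodendrocytes in the levels of Car2 was not tested.

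Car3, the slow cytosolic form known from adipocytes and slow muscle, had 45.8 RPKM in the lung-labelled library, 16.5 in the colon-labelled one, 7.84 in the brain-labelled one, 6.42 in the kidney-labelled one and 5.95 RPKM in the heart-labelled one. No read fell on Car3 in the small-intestine-labelled library, where 3 reads would give 0.503 RPKM. The lung-labelled library stood 2.77-fold above the colon-labelled one (2.08 to 3.75), whereas the brain-, kidney- and heart-labelled ones were neighbours that could not be separated.

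Adipocyte markers moved with Car3 in part. Adipoq, the adipocyte hormone adiponectin, had 66.7 RPKM in the lung-labelled library and 28.2 in the colon-labelled one. Plin1, a coat protein of lipid droplets, had 21.4 and 10.2 RPKM, and Cfd, the secreted protease adipsin, 240 and 70.9 RPKM in the same libraries. All 3 were at most 1.52 RPKM in the small-intestine-labelled library. The rest of the list did not share this order, since Cidec was highest in the brain-labelled library at 634 RPKM, Retn in the colon-labelled one at 13.6 RPKM, and Lep, the gene of leptin, had no reads in any library. Summed over the 6 markers, the levels were 789 RPKM in the lung-labelled library, 664 in the brain-labelled one, 273 in the colon-labelled one, 153 in the heart-labelled one, 85.8 in the kidney-labelled one and 8.98 RPKM in the small-intestine-labelled one. Skeletal muscle markers were at 44.7 RPKM in sum in the lung-labelled library and at 2312 RPKM in the heart-labelled one. Of the latter, Ckm alone, shared with cardiac muscle, gave 2225 RPKM. Of the 7 muscle markers, 4 were highest in the heart-labelled library. The remaining 3 were highest in the lung-labelled one, with Mylpf at 21.4 RPKM, Tnnt3 at 4.28 and Myh4 at 1.36 RPKM. The part of either cell type in the level of Car3 was not tested.

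**Figure D3:**
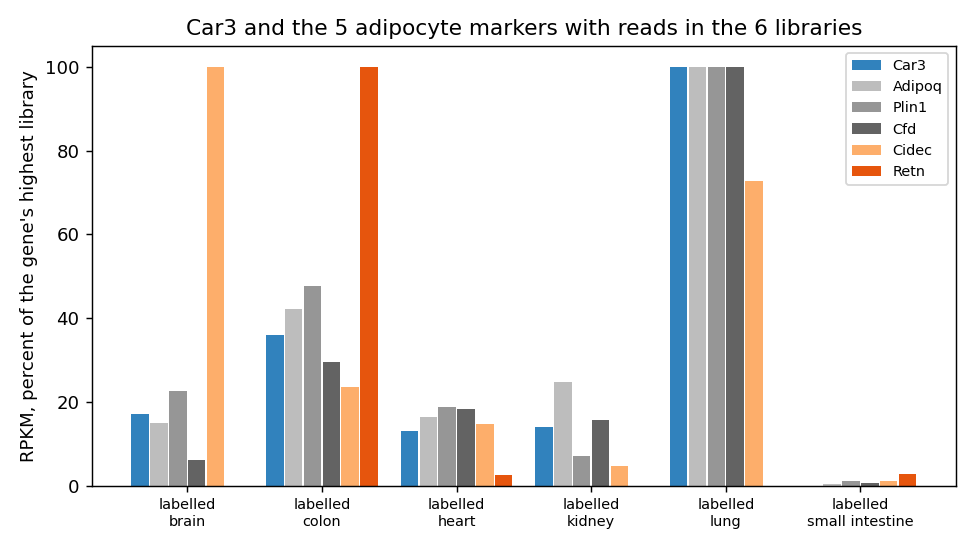
RPKM of Car3 and of the 5 adipocyte markers with reads, each as percent of the gene's highest library, for the 6 libraries (1 per label). Car3, Adipoq, Plin1 and Cfd are all highest in the lung-labelled library and next in the colon-labelled one, whereas Cidec is highest in the brain-labelled one and Retn in the colon-labelled one.

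Membrane forms divided between the kidney- and colon-labelled libraries. Car4, the lipid-anchored enzyme of capillary endothelium and of several epithelia, was the only membrane form with at least 100 reads in every library. Its RPKM was 371 in the kidney-labelled library, 83.7 in the colon-labelled one, 39.3 in the heart-labelled one, 33.6 in the lung-labelled one, 23.9 in the small-intestine-labelled one and 18.7 in the brain-labelled one. The kidney-labelled library stood 4.43-fold above the colon-labelled one (3.96 to 4.97), and the heart- and lung-labelled libraries could not be separated (1.17, 0.980 to 1.39). The 4 markers of capillary endothelium were all highest in the lung-labelled library, at a sum of 1062 RPKM. In the kidney-labelled one, where Car4 was highest, they summed to 38.9 RPKM, with 20.7 RPKM of the adhesion protein Pecam1, 11.9 of the growth factor receptor Kdr, 3.28 of Gpihbp1 and 2.98 RPKM of Ednrb. Their sum was 42.7 RPKM in the small-intestine-labelled library, of which Ednrb gave 34.4 RPKM, while Pecam1, Kdr and Gpihbp1 were lower there than in the kidney-labelled one. The sums were 204 RPKM in the heart-labelled library, 105 in the colon-labelled one and 51.6 RPKM in the brain-labelled one. The part of endothelium in the levels of Car4 was not tested.

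Car12, a transmembrane form of secretory and absorbing epithelia, had 79.8 RPKM in the colon-labelled library, 35.9 in the kidney-labelled one, 18.5 in the brain-labelled one, 9.24 in the small-intestine-labelled one, 5.12 in the lung-labelled one and 0.690 RPKM, from 6 reads, in the heart-labelled one. Its ratio of the colon- and kidney-labelled libraries was 2.23 (1.90 to 2.60), and it dropped below 2 under other scalings, to 1.86 as TPM, to 1.86 without Kri1, an mRNA that took 22.1% of the reads in the kidney-labelled library, and to 1.78 with median-of-ratios size factors. The colon-labelled value stayed above the kidney-labelled one under each of these.

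Car14, a transmembrane form known from kidney tubules, heart muscle and neurons, had 323 RPKM in the colon-labelled library, 185 in the heart-labelled one, 77.4 in the small-intestine-labelled one, 7.55 in the lung-labelled one, 2.61 in the kidney-labelled one and 0.0930 RPKM, from 1 read, in the brain-labelled one. Its profile was broad at the top and empty at the bottom, with 3 libraries above 77 RPKM and 3 below 8 RPKM. The colon- and heart-labelled libraries differed 1.74-fold (1.62 to 1.87), under the 2-fold line, and Car14 ranked 395 of 12325 and 618 of 14670 mRNAs with reads in them. Kidney markers were at 21255 RPKM in sum in the colon-labelled library, 574 in the brain-labelled one and 178 RPKM in the lung-labelled one. Their sums were 18.4 RPKM in the kidney-labelled library, 15.1 in the heart-labelled one and 13.8 RPKM in the small-intestine-labelled one. The part of kidney cells in the levels of Car14 was not tested. Between the heart- and lung-labelled libraries, whose markers match their labels, Car14 was 24.5-fold higher in the heart-labelled one (18.9 to 32.4).

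Car15, a lipid-anchored form of the kidney, had 21.9 RPKM in the colon-labelled library from 96 reads, 0.133 RPKM from 1 read in the lung-labelled one, and no reads in the remaining 4. The ratio of 165 rests on that 1 read and has an interval of 28.9 to 6574. Where Car15 had no reads, 3 reads would give between 0.290 and 0.407 RPKM. The 4 markers of renal intercalated cells, the acid- and base-secreting cells of the collecting duct, were likewise all highest in the colon-labelled library, at a sum of 203 RPKM against at most 8.20 RPKM elsewhere, and their part in the level of Car15 was not tested. Slc26a4, Slc4a9 and Atp6v1b1 of this list also belong to the lists of transporters.

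**Figure D4:**
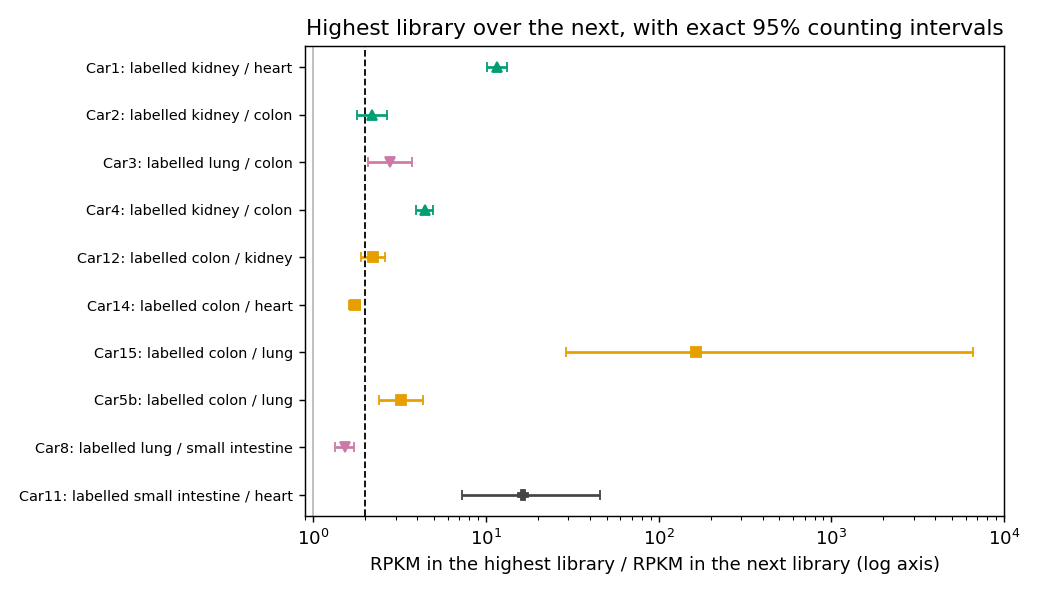
Ratio of the RPKM of each member in its highest library to that in the next library (log axis), with exact 95% counting intervals as bars and the 2-fold line dashed. The labels on the left name both libraries, and 8 of the 10 points lie at or above 2-fold.

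The mitochondrial form was clearly measured in the colon- and lung-labelled libraries and rested on at most 16 reads in the rest. Car5b, which supplies bicarbonate to carboxylases of the mitochondrial matrix, had 31 RPKM in the colon-labelled library, 9.66 in the lung-labelled one, 2.22 in the kidney-labelled one, 1.16 in the heart-labelled one and 0.963 RPKM in the small-intestine-labelled one. It had no reads in the brain-labelled one, where 3 reads would give 0.297 RPKM. The colon-labelled library stood 3.21-fold above the lung-labelled one (2.39 to 4.35), which in turn stood above the kidney-labelled one (4.35, 2.51 to 8.02). Neighbours among the kidney-, heart- and small-intestine-labelled libraries, with 7 to 16 reads, could not be separated. In the colon-labelled library Car5b was above 75.1% of the mRNAs with reads. Car5b held 5.17% of the summed RPKM of the members in the colon-labelled library and 4.25% in the lung-labelled one, its largest shares. Car5a, the liver form, reached 2.97 RPKM from 12 reads in the colon-labelled library.

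Of the mitochondrial enzymes that consume bicarbonate or belong to the urea cycle, Pcca, Pccb and Mccc1 were highest in the colon-labelled library as well, at 24.8, 55.5 and 135 RPKM, but none of these stood 2-fold above the next library. Cps1, which makes carbamoyl phosphate from bicarbonate, had 196 RPKM in the brain-labelled library, 8.32-fold above the next (7.74 to 8.95), in the library where Car5b had no reads. Pc, the pyruvate carboxylase, was not analysed here.

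The related proteins Car8 and Car11 had unlike profiles. Car8, which binds the inositol trisphosphate receptor Itpr1 and is known from Purkinje cells of the cerebellum, had 92.6 RPKM in the lung-labelled library, 60.7 in the small-intestine-labelled one, 58.2 in the kidney-labelled one, 12.6 in the heart-labelled one, 9.59 in the brain-labelled one and 6.10 RPKM in the colon-labelled one. The lung- and small-intestine-labelled libraries differed 1.53-fold (1.34 to 1.73) in RPKM, and this order reversed with median-of-ratios size factors, where the ratio was 0.960. The small-intestine- and kidney-labelled libraries could not be separated (1.04, 0.905 to 1.20). Between the heart- and lung-labelled libraries, Car8 was 7.35-fold higher in the lung-labelled one (5.89 to 9.27).

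Purkinje markers did not accompany Car8 in the lung-labelled library, where Pcp2 had no reads and Calb1 had 0.826 RPKM. In the small-intestine-labelled library, Pcp2 had 9.30 RPKM and Calb1 had 227 RPKM. In the kidney-labelled one Pcp2 again had no reads and Calb1 had 1.01 RPKM. Calb1 was highest in the colon-labelled library at 3170 RPKM, where Pcp2 had no reads and Car8 had 6.10 RPKM. The part of Purkinje cells in the levels of Car8 was not tested. Itpr1 was highest in the colon-labelled library at 60.8 RPKM, followed by 36.1 RPKM in the small-intestine-labelled one and 26.7 RPKM in the lung-labelled one. Car8 had its lowest value in the colon-labelled library, which could not be separated from the brain-labelled one (1.57, 0.992 to 2.58).

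Car11, a related protein of the brain that enters the secretory pathway, had 12.2 RPKM from 92 reads in the small-intestine-labelled library, 0.745 RPKM from 6 reads in the heart-labelled one, and no reads in the remaining 4. The ratio was 16.4 (7.26 to 45.9). Car10, the nearest relative of Car11, had the same pair of libraries with 32.0 RPKM and, from 1 read, 0.124 RPKM. Like Car11 it lacks a full set of the zinc-binding histidines, with histidine at 1 of the 3 positions. Ptprz1, a receptor phosphatase of glia with a carbonic anhydrase-like domain, was also highest there, at 67.9 RPKM and 25.9-fold above the next library (21.8 to 30.9), and Ptprg was not analysed here. All 4 brain markers were highest in this library too, and their part in the levels of Car11, Car10 and Ptprz1 was not tested.

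Of the other enzymes of the family, Car9, a transmembrane form known as a target of hypoxia signalling, was highest in the kidney-labelled library with 24.2 RPKM, 10.2-fold above the colon-labelled one (5.98 to 19.0). Car6, the secreted form of saliva, and Car7, a cytosolic form of neurons, had at most 1 read per library. Of the 6 genes, 3 had at least 20 reads in a library (Car9, Car10 and Car13), and all 3 were called at 2-fold, beside 44.6% of all mRNAs.

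Bicarbonate made inside a cell leaves or enters through transporters, whose mRNAs were followed as a list of 15 genes. Of the 14 with at least 20 reads, 11 stood 2-fold or more above the next library, beside 44.6% of all mRNAs, and 5 of these were highest in the colon-labelled library. The median over all 15 genes lay between 0.51 (labelled heart) and 2.46 (labelled colon) on the log2(RPKM + 1) scale. For the mRNAs with at least 20 reads in their highest library, the medians were 2.63 and 2.83 in the same libraries. The list was lower in every library, but it was not filtered by reads as these mRNAs were. In the colon-labelled library, where Car14 led, Slc4a4, the sodium bicarbonate cotransporter of the proximal tubule, had 701 RPKM, 6.15-fold above the next library (5.90 to 6.41). Slc26a4, the exchanger pendrin, had 114 RPKM there, and Slc4a9 had 6.84 RPKM.

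In the kidney-labelled library, where Car1 and Car4 led, Slc26a3 was 5.90-fold above the next library (5.58 to 6.25), and Slc4a7 had 21.2 RPKM. Slc26a6, an apical anion exchanger of the small intestine, had 217 RPKM in the brain-labelled library, 27.9-fold above the next (23.6 to 33.1), in the library where Car13 led. Slc4a10, a neuronal sodium-driven exchanger, had 185 RPKM in the small-intestine-labelled library and at most 1.20 RPKM elsewhere. Slc4a5 had 72.1 RPKM in the lung-labelled library, 15.7-fold above the next. In the heart-labelled library no gene of the list was highest, although Slc4a3, the anion exchanger of heart and brain, had 27.4 RPKM there and 29.4 RPKM in the small-intestine-labelled one, a ratio of 1.07 (0.973 to 1.18).

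**Figure D5:**
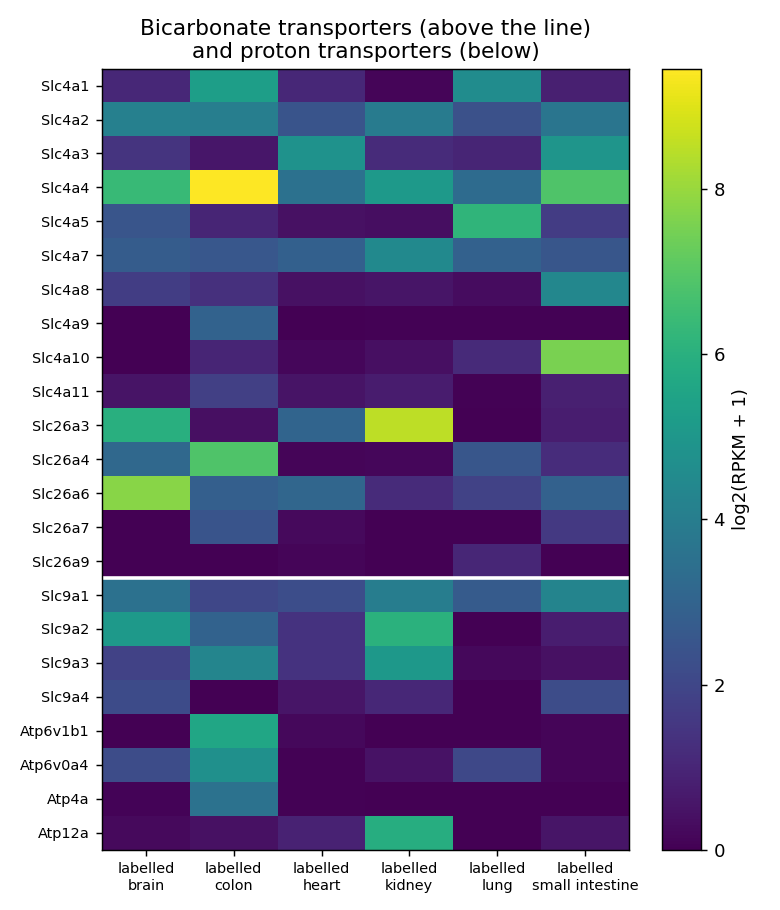
Ribosome density as log2(RPKM + 1) of 15 bicarbonate and chloride transporters (above the white line) and 8 proton transporters (below) in the 6 libraries, 1 per label. Slc4a4 in the colon-labelled library and Slc26a3 in the kidney-labelled one are the brightest cells, at 701 and 367 RPKM.

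Proton transporters, which carry the other product of the reaction, were called in 4 of 8 cases, beside 44.6% of all mRNAs. Atp6v1b1, Atp6v0a4 and Atp4a were highest in the colon-labelled library with 47.2, 25.6 and 10.9 RPKM, and Atp12a, the proton and potassium pump of the distal colon, in the kidney-labelled one with 58.1 RPKM. Slc9a2 and Slc9a3, sodium and proton exchangers of epithelia, were highest in the kidney-labelled library at 64.6 and 32.1 RPKM but under 2-fold above the next. Slc16a1, a lactate transporter reported to work with carbonic anhydrases, had 526 RPKM in the kidney-labelled library and 331 RPKM in the heart-labelled one.

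The mRNAs with the profile most like each member were found by Pearson's r of log2(RPKM + 1) over the 6 libraries, among 11237 mRNAs with at least 20 reads in a library and a range of at least 2 on that scale. All points of a profile share the same 6 libraries, so these r values describe order and spacing only. For Car1 the nearest were Cela1 (0.9914), Rab43 and Smpdl3b, for Car2 Ambp (0.9832), Apoc1 and Magt1, and for Car3 Fhod1 (0.9977), Plvap and Irgm2. Plvap, a protein of endothelial diaphragms, had 576 RPKM in the lung-labelled library and 168 RPKM in the colon-labelled one. For Car4 they were St3gal6 (0.9826), Hps1 and Hoxb13, for Car12 Glb1 (0.9689), Mlec and Gjb2, and for Car14 Grhpr (0.9862), Mgll and Bnip3. For Car5b they were Zfp7 (0.9966), Esm1 and Cryzl2, and for Car8 Slc36a1 (0.9918), Gskip and Agpat4. Car15 was matched by Gsta2 (0.9998), Kcnj1, the potassium channel of the thick limb and collecting duct, and Rhcg, an ammonia transporter, the last with 58.5 RPKM in the colon-labelled library. Profiles like that of Car11, with Mllt11, Cdk5r1 and Baalc nearest, were so common that 705 mRNAs had an r over 0.95, against 118 for Car15 and 7 for Car12. Between members the closest profiles were those of Car2 and Car4 (r = 0.82 over 6 libraries) and of Car5b and Car15 (0.81).

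Genes of the family that lie side by side had 3 different highest libraries. Car13, Car1, Car3 and Car2 lie in this order within 261 kb of chromosome 3 (GRCm39, 14706783 to 14967568), with Car1 on the minus strand and the rest on the plus strand. Their highest libraries were those labelled brain (Car13), kidney (Car1 and Car2) and lung (Car3). Car14 lies on the same chromosome at 95805079 to 95812646.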

How the data were processed

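Each mRNA listed for a library has 1 RPKM value as the authors deposited it, and its row name also holds the CDS length. An mRNA not listed for a library was counted as having no reads in it. Among the members this holds for every case of no reads except Car11 in the kidney-labelled library, which was listed without reads. The study's processing was described for its macrophage libraries and was assumed to be the same for the tissues: adapters were trimmed with Cutadapt, reads were aligned with STAR to the longest-CDS mRNA of each gene in Ensembl GRCm39, and multi-mapped reads were left out. RPKM depends on the reads of all mRNAs in a library, so a very abundant mRNA lowers the rest. Gene symbols, coordinates and CDSs come from GENCODE M39, a later annotation of GRCm39, which named 18424 of 18437 mRNAs. All 16 CDSs were found in it with the length given, 3 of them at the position given.

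Reads were recovered as RPKM multiplied by CDS length over the value of 1 read, and 100% of values were whole within 0.001. A call is a ratio of at least 2 between the highest and the next library, with at least 20 reads in the highest. Share intervals are Wilson intervals, and ratio intervals are Clopper-Pearson intervals of the reads conditional on their sum. The scripts were tested on simulated data. Members, gene lists and rules were chosen with earlier results of these data known. The mRNAs named are the members, the other carbonic anhydrases, the lists and, per member, the 3 nearest by r. A marker gene of the lists is not reported here. Proteins were aligned with MAFFT v7.526. Python 3.11.15, numpy 2.4.6, scipy 1.17.1 and matplotlib 3.10.9 were used.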

Additional observations from a re-analysis of the deposited data

How the results depend on the processing

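No paired analysis was possible because each label has 1 library. With 1 library per label, no value has a replicate error, and the lowest total, 4504853 reads, sets the limit for mRNAs without reads. Scaling moved the median of all mRNAs between libraries, by -0.44 (labelled lung) to 0.23 (labelled small intestine) on the log2 scale with median-of-ratios size factors and by up to 0.24 (labelled kidney) without Kri1. Among the ratios of the highest over the next library under alternatives, 47 kept their side of 2-fold, Car12 dropped below it under 3 scalings (1.86, 1.86 and 1.78), Car8 passed it between the heart- and lung-labelled libraries alone (7.35), and Car8 reversed with size factors (0.960). The cause was not tested. With the heart- and lung-labelled libraries alone, the ratio of the highest over the next library was recomputed for Car3 and Car8, since the other 8 members are highest in libraries then left out. The count of members called was 8. At 4-fold, where a higher line can only lower the count, it was 4. With at least 100 reads, 8 members were tested and the count was 6, beside 43.4% of all mRNAs that met the same rule. It was 7 without Kri1, as TPM and with size factors, since Car12 was lost in each.

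The lung-labelled library has no share without Car8 and Car11, since its leading group is Car8 itself. In the brain-labelled library, Car4 was at 0.111 of Car13 with all 16 genes and at 0.809 of Car12 after thinning, the family share of reads was 0.0187% with all 16 genes, and the membrane share was 16.7% with them and 78.5% without Car8 and Car11. Counting reads in place of RPKM gave Car1 over Car4 as 1.00 in the kidney-labelled library and Car14 over Car8 as 1.48 in the small-intestine-labelled one. It gave membrane shares of 86.8%, 81.2% and 60.2% in the colon-, heart- and small-intestine-labelled libraries and a cytosolic share of 48.6% in the kidney-labelled one. Without Car8 and Car11 the shares were 81.5% (membrane, labelled heart), 56.0% (cytosolic, labelled kidney) and 92.1% (membrane, labelled small intestine), and with all 16 genes 47.7% (membrane, labelled small intestine). The family share of reads was 0.0630%, 0.108% and 0.0212% without Kri1 in the colon-, kidney- and small-intestine-labelled libraries. It was 0.0291% and 0.0873% without mitochondrially encoded mRNAs in the heart- and kidney-labelled ones, and 0.0903% and 0.0221% with all 16 genes in the kidney- and small-intestine-labelled ones.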
